A study of Mus musculus with 2 samples.

Results

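The kidney endothelial cells described here carried Plvap, the gene of the protein that forms the diaphragm of fenestrae in capillaries, and made up 157 of 967 endothelial cells and 157 of the 17701 cells kept from 2 single-cell RNA libraries of mouse kidney after ischemia-reperfusion injury. They were chosen by their transcript counts. A cell counted as endothelial when it had at least 2 unique molecular identifiers (UMIs, 1 per captured mRNA molecule) of Cdh5, Pecam1 and Egfl7 together and 0 UMIs of the leukocyte gene Ptprc. From these, cells with more than 2 UMIs of the pericyte genes Rgs5 and Pdgfrb, then cells with Slc14a1 (descending vasa recta), then cells with Sox17, Gja4 or Gja5 (arterial side) were set aside, and of the remainder the cells with at least 2 UMIs of Plvap were taken. The control library held 57 of these Plvap capillary cells (called members in the plots) and the mutant library 100.

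Peritubular capillaries of the kidney cortex and medulla are lined by fenestrated endothelium, through which water and solutes reabsorbed by the tubules return to the blood. In endothelium the prolyl hydroxylases PHD1, PHD2 and PHD3, encoded by Egln2, Egln1 and Egln3, use oxygen to mark the alpha subunits of hypoxia-inducible factor (HIF) for degradation. When oxygen or the hydroxylases are lacking, HIF accumulates and switches on genes of glycolysis, mitophagy, angiogenesis and its own feedback control.

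The study asked what endothelial loss of PHD1, PHD2 and PHD3 after ischemia does to the kidney. Both libraries came from mice of 8 to 10 weeks whose renal artery had been clamped on 1 side for 25 min at 37 ˚C, which received 4 intraperitoneal injections of 3 mg tamoxifen every other day from the day after surgery, and whose injured kidney was dissociated on day 14. The mutant (PHDTiEC) carried Cdh5-CreERT2 and was Phd1f/f, Phd2f/f and also Phd3f/f, with Cre driven by the Cdh5 promoter, which is active in vascular endothelium in general and not in capillaries alone. The control was a Cre- littermate, and its label does not spell out its floxed alleles. There was 1 library per genotype, so differences between genotypes had no replicate check and no test. The intervals given below are exact (Clopper-Pearson) 95% intervals, and they cover counting error only.

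The libraries were close in depth, with 136004367 UMIs in Cre- and 146758812 in PHDTiEC. They shared 27 kept barcodes, none of which was a Plvap capillary cell in both libraries, and 1 PHDTiEC capillary barcode was also kept in Cre-. The capillary cells had a median of 3504 UMIs in Cre- and 3454.5 in PHDTiEC, with 1651 and 1678 genes. Depth was uneven among them, since the 10 deepest capillary cells held 51.0% of the capillary UMIs in Cre- and 51.3% in PHDTiEC. Many of those deep cells also carried transcripts of kidney tubule. At least 3 UMIs of 16 tubular genes were found in 11 of 57 capillary cells of Cre- and 20 of 100 of PHDTiEC, and these cells held 41.6% and 57.7% of the capillary UMIs. Each main value is therefore given for all capillary cells and again for the 46 Cre- and 80 PHDTiEC cells with under 3 tubular UMIs, called the low-tubular cells here, which had medians of 3340.5 and 3340 UMIs.

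The capillary cells had the transcripts that their selection implies. The sum of Plvap (chr8:71497765-71511752 of mm10, minus strand) was 1761 CPM (counts per 1000000 UMIs of the cells summed) in the capillary cells of both libraries, 408 CPM in the cells with Sox17, Gja4 or Gja5, 165 CPM in the Slc14a1 cells and 17.8 CPM in all other kept cells. Plvap ranged up to 46 UMIs a cell in Cre- and 45 in PHDTiEC, with medians of 10 and 9. Of the genes that the selection did not use directly, Gpihbp1, which carries lipoprotein lipase to the capillary surface, was at 526 CPM against 203 CPM in the Sox17, Gja4 or Gja5 cells and 11.4 CPM in other kept cells. Aplnr, the apelin receptor, was at 148 CPM against 25.4 CPM in the Sox17, Gja4 or Gja5 cells. Gpr182, an atypical chemokine receptor of sinusoidal and capillary endothelium, was at 87.0 CPM against 16.6 CPM there, and Kcnj8, a potassium channel subunit, at 82.4 CPM against 13.9 CPM. Fabp4, a fatty acid carrier of capillaries, was the most abundant of these at 2725 CPM. These levels describe cells that were picked by their transcripts, and no test was made of them.

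**Figure D1:**
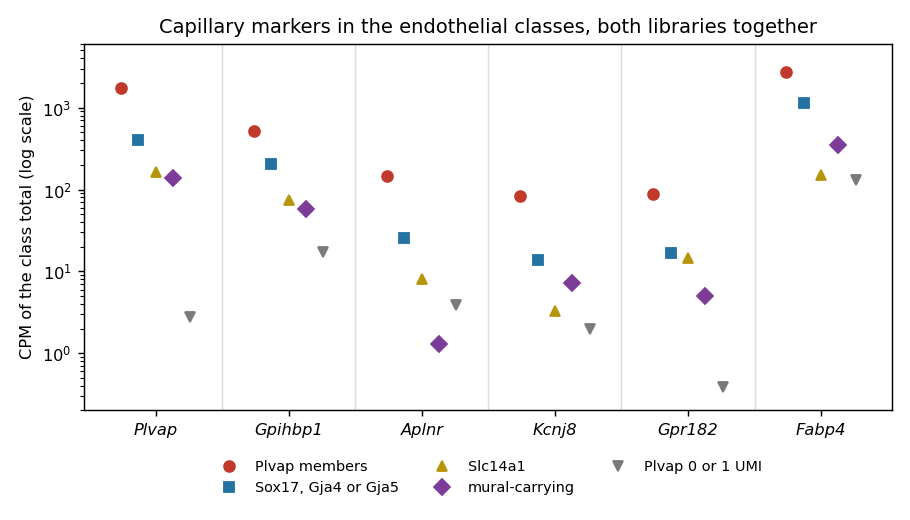
Summed CPM (log axis) of capillary marker genes in 5 endothelial classes, both libraries together; members are the Plvap capillary cells. Plvap is highest in the Plvap capillary cells at 1761 CPM, which is how they were chosen, and Gpihbp1, Aplnr, Kcnj8, Gpr182 and Fabp4 are highest there too.

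The marker genes were not spread evenly among the capillary cells. Fabp4 was seen in 91.2% of them in Cre- and 91.0% in PHDTiEC, against 8.36% and 9.21% of Ptprc-positive immune cells, which had larger median depths of 7057.5 and 7317 UMIs. Gpihbp1 was seen in 63.2% and 64.0% (immune cells 1.18% and 1.38%). Aplnr was seen in 54.4% and 42.0%, Gpr182 in 40.4% and 34.0%, and Kcnj8 in 26.3% and 31.0%, each in under 1% of immune cells. Genes of other vessel beds were present as well. Nr2f2, Vwf or Selp, which are genes of veins and venules, were seen in 30 of 57 cells of Cre- and 62 of 100 of PHDTiEC, and Ehd3 or Plat, which are known from glomerular endothelium, in 27 and 46. Of 7 lymphatic genes, 2 were detected in Cre- (35 UMIs) and 4 in PHDTiEC (99 UMIs), of which Flt4, which blood capillaries also use, gave 34 and 75 UMIs, and Lyve1, Mmrn1 and Ccl21a were at 0 in both. Of 9 mural genes, 6 were detected in Cre- (16 UMIs) and 8 in PHDTiEC (45 UMIs), after a selection that had already limited Rgs5 and Pdgfrb. The selection fixed Plvap and the classes set beside the capillary cells, so the marker levels do not check the label independently. Venous genes were common among the cells, and fenestrae themselves were not measured.

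Near the threshold, 7 capillary cells of Cre- and 6 of PHDTiEC had exactly 2 Plvap UMIs, and 2 and 5 cells with 1 Plvap UMI lay just outside. Gpihbp1 was seen in 6 of the 7 and 4 of the 6 cells inside, and in 1 of the 2 and 1 of the 5 cells outside. Another 41 and 47 endothelial cells that were in no other class had 0 Plvap UMIs.

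The share of capillary cells among endothelial cells was 13.8% (57 of 412, interval 10.6% to 17.6%) in Cre- and 18.0% (100 of 555, 14.9% to 21.5%) in PHDTiEC. The intervals overlapped. Without the cells that carried tubular transcripts the shares were 19.1% and 20.0%, a ratio of 1.05 in place of 1.30. Among all kept cells the shares were 0.673% and 1.08%. The largest class, with Sox17, Gja4 or Gja5, was at 46.1% and 46.8%, and the mural-carrying class was at 26.2% and 21.3%.

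**Figure D2:**
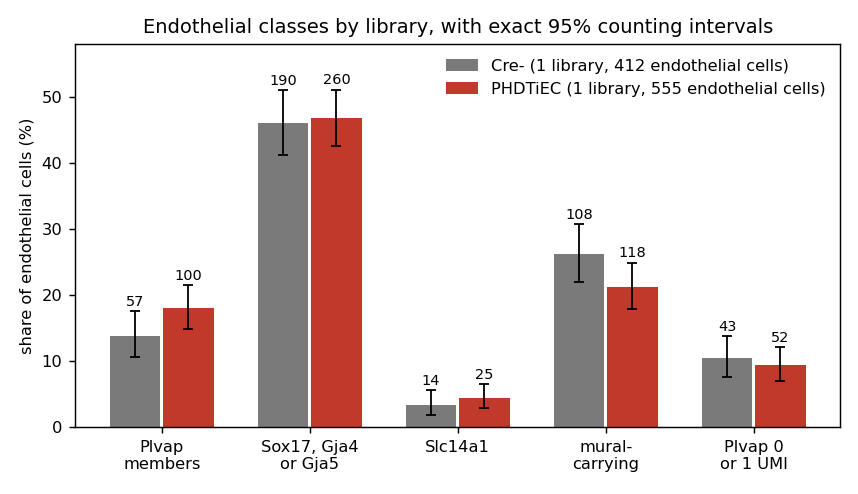
Share of endothelial cells in each class (percent, bars from 0) in the Cre- library (412 cells) and the PHDTiEC library (555 cells), with exact 95% binomial intervals for counting error. The Plvap capillary class is at 13.8% and 18.0%, with overlapping intervals.

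The targeted genes were compared between the libraries in the capillary cells. Egln1, the gene of PHD2 (chr8:124908587-124949324, minus strand), had 19 UMIs in Cre- and 83 in PHDTiEC, or 59.6 and 111 CPM, a log2 ratio of PHDTiEC over Cre- of 0.89 (interval 0.16 to 1.69). Egln3, the gene of PHD3 (chr12:54178981-54203860, minus strand), had 10 and 53 UMIs and a log2 ratio of 1.17 (0.18 to 2.31). Egln2, the gene of PHD1 (chr7:27158658-27166802, minus strand), had 16 and 40 UMIs, 50.2 and 53.4 CPM, and a log2 ratio of 0.09 (-0.78 to 1.02). None of the floxed genes was lower in the library labelled PHDTiEC. Reads were taken from the 3′ ends of transcripts and summed per gene, and where the deleted exons lie relative to them is not given in the sources used here, so the counts do not check the deletion. Every direction below is therefore that of the library labelled PHDTiEC. Egln1 and Egln3 are themselves HIF targets and were also higher in the low-tubular cells, with log2 ratios of 1.97 (0.95 to 3.16) and 1.66 (0.55 to 2.96).

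Of the HIF subunits, Hif1a (chr12:73901375-73947530, plus strand) had 13 UMIs in 11 cells of Cre- and 126 UMIs in 52 cells of PHDTiEC. Its log2 ratio was 2.04 (1.22 to 2.99), and 1.82 (0.88 to 2.89) in the low-tubular cells. Epas1, the gene of HIF-2alpha and the more abundant of the pair, had 98 and 166 UMIs and a log2 ratio of -0.47 (-0.84 to -0.10), which was 0.03 (-0.38 to 0.45) in the low-tubular cells. Arnt, the partner subunit of both, was at 0.03 (-1.09 to 1.26), and Hif3a was at 0 in both libraries. The capillary cells thus had more Hif1a transcript in PHDTiEC by either count, while the lower Epas1 was seen only with the tubule-carrying cells included.

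HIF target genes were higher in the PHDTiEC capillary cells. Their sum was 1933 CPM in Cre- and 2868 CPM in PHDTiEC over all capillary cells, and 1257 and 2935 CPM in the low-tubular cells. Of the 28 targets with at least 10 UMIs, 26 had a higher CPM in PHDTiEC and the median log2 ratio was 0.91, beside 0.06 over all 9414 genes with that many UMIs. The interval lay above 0 for 11, beside 795 of the 9414 genes, and below 0 for 1, Ndrg1, beside 663. Of the 25 targets with at least 20 UMIs, 9 were at least 2-fold higher, beside 10.9% of the 7194 genes with that many UMIs, and 0 were 2-fold lower, beside 4.27%. In the low-tubular cells 23 of 26 targets were higher with a median of 1.48, the interval lay above 0 for 13, beside 301 of 6484 genes, and below 0 for 0, and 12 of 19 were at least 2-fold higher, beside 6.29% of 4168 genes (2.86% were 2-fold lower). The difference in HIF targets was thus larger after the tubule-carrying cells were set aside.

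Some of the targets with intervals above 0 act in mitochondria. Bnip3, a receptor for mitophagy (chr7:138890836-138909519, minus strand), had 20 UMIs in 8 cells of Cre- and 119 UMIs in 27 cells of PHDTiEC, or 62.8 and 159 CPM, with a log2 ratio of 1.34 (0.65 to 2.10). A single PHDTiEC cell gave 31.9% of the Bnip3 UMIs of that library. In the low-tubular cells Bnip3 had 6 and 71 UMIs and a log2 ratio of 2.80 (1.60 to 4.29). Its relative Bnip3l had 44 and 201 UMIs and a log2 ratio of 0.96 (0.48 to 1.46). Higd1a, which modulates the respiratory chain in hypoxia, had 32 and 146 UMIs and a log2 ratio of 0.96 (0.40 to 1.56), and Fam162a, a mitochondrial HIF target, 27 and 109 UMIs and 0.78 (0.16 to 1.44). Bnip3l, Higd1a and Fam162a were at 1.60, 1.55 and 1.60 in the low-tubular cells, each with its interval above 0.

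Some genes of secreted proteins were also examined singly. Vegfa, the main endothelial growth factor, had 9 UMIs in Cre- and 46 in PHDTiEC and a log2 ratio of 1.12 (0.07 to 2.34), with 2 and 22 UMIs in the low-tubular cells. Adm, which encodes the vasodilator adrenomedullin, had 6 and 34 UMIs and a log2 ratio of 1.27 (-0.00 to 2.81), and 2.04 (0.52 to 4.01) in the low-tubular cells. Mif, the macrophage migration inhibitory factor, counted here with the cytokines and not in the HIF target list (chr10:75859353-75860240, minus strand), was more abundant, with 81 and 374 UMIs, a log2 ratio of 0.97 (0.62 to 1.34) and 2.07 (1.48 to 2.71) in the low-tubular cells. Loxl2, a collagen crosslinking oxidase, had 0 UMIs in Cre- and 22 UMIs in 17 cells of PHDTiEC. Its log2 ratio was 1.64 with the Cre- count set at 3 UMIs, a value that leaves out counting error.

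Some targets did not follow. Bhlhe40 and Cited2, which feed back on transcription in hypoxia, had log2 ratios of 1.15 and 1.25 over all capillary cells, but -0.16 (-0.96 to 0.66) and 0.45 (-1.02 to 2.12) in the low-tubular cells. Ndrg1 was at -0.35 (-0.58 to -0.12), with 52.9% of the UMIs of a library from 1 cell, and Kdm3a, a histone demethylase, was at -0.39 (-1.58 to 0.89).

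The promoters of 2 targets are shown, taken only from targets with the core HIF binding motif in the window. Their genes moved with the group in both counts and differ in how often the motif occurs. The window is the 300 bases from 250 before to 50 after the RefSeq start on GRCm38.p6, written 5′ to 3′ on the strand of the gene, at chr7:138909457-138909756 for Bnip3 and chr12:54203825-54204124 for Egln3, both on the minus strand. Capitals mark ACGTG or GCGTG on either strand (CACGT or CACGC on the strand printed), where overlapping matches run together as CACGTG.
Bnip3: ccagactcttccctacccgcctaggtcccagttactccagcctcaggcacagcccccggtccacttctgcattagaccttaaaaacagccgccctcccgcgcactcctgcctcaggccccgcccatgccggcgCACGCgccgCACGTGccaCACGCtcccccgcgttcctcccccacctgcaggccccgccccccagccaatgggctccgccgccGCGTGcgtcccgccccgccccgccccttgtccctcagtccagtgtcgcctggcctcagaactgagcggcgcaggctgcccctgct
Egln3: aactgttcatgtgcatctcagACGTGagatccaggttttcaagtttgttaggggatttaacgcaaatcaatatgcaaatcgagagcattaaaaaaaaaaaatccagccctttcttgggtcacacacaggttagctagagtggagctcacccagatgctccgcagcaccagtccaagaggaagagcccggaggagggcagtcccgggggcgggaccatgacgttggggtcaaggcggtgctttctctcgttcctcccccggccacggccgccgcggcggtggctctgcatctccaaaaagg
The Bnip3 window had 5 matches and the Egln3 window 1. The motif is short, and 43.8% of all 32851 promoter windows held it, beside 26 of the 34 windows (76.5%) of the HIF targets. Of the 32 HIF targets 22 were matched in the promoter table, and 21 of them had the motif in any window, beside 46.7% of all 27025 genes. A match is a description of the letters and not evidence of binding.

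Glycolytic genes were higher in the PHDTiEC capillary cells as well. Their sum was 4255 CPM in Cre- and 5178 CPM in PHDTiEC over all capillary cells, and 2342 and 5286 CPM in the low-tubular cells. Of 19 genes with at least 10 UMIs, 16 were higher, with a median log2 ratio of 0.73. The interval lay above 0 for 11, beside 795 of all 9414 genes with that many UMIs, and below 0 for 1, beside 663. At least 2-fold higher were 5 of 18, beside 10.9% of all genes. In the low-tubular cells 16 of 17 were higher with a median of 1.04. There the interval lay above 0 for 12, beside 301 of all 6484 genes, and 12 of 17 were at least 2-fold higher, beside 6.29%. The Cre- sum was thus larger with the tubule-carrying cells than without, while the PHDTiEC sum barely differed.

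Individual enzymes were higher along the pathway. Tpi1, triosephosphate isomerase (chr6:124810586-124814296, minus strand), had 48 UMIs in 9 cells of Cre- and 236 UMIs in 36 cells of PHDTiEC, a log2 ratio of 1.06 (0.61 to 1.54). In the low-tubular cells it had 5 and 120 UMIs, 26.9 and 378 CPM, and a log2 ratio of 3.82 (2.55 to 5.46), the largest of the glycolytic genes there. Pgk1, phosphoglycerate kinase, had 51 and 215 UMIs and a log2 ratio of 0.84 (0.40 to 1.31), and 1.86 (1.09 to 2.72) in the low-tubular cells. Aldoa, aldolase, had 101 and 443 UMIs and was at 0.90 (0.58 to 1.22) and 1.07 (0.59 to 1.58). Gapdh and Ldha, which encode glyceraldehyde-3-phosphate and lactate dehydrogenase, were at 0.33 (0.10 to 0.55) and 0.39 (0.10 to 0.69) over all capillary cells and at 1.29 and 1.04 in the low-tubular cells. Pkm, pyruvate kinase, was at 0.74 and 1.01, and Pfkl, a phosphofructokinase, at 1.01 and 1.66.

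The ends of the pathway had few UMIs. Slc16a3, the lactate exporter MCT4, had 2 UMIs in Cre- and 29 UMIs in 16 cells of PHDTiEC, a log2 ratio of 2.62 (0.64 to 5.74), and 2.62 (0.59 to 5.76) in the low-tubular cells. Slc2a1, the glucose transporter GLUT1, had 8 and 33 UMIs with an interval that spanned 0 (0.81, -0.33 to 2.14). Pdk1, which diverts pyruvate from mitochondria, was at 0.65 (-0.26 to 1.66) over all capillary cells and at -0.25 in the low-tubular cells. Ldhb, the lactate dehydrogenase subunit abundant in tubule, was lower at -0.85 (-1.03 to -0.66), with 79.2% of the UMIs of a library from 1 cell.

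**Figure D3:**
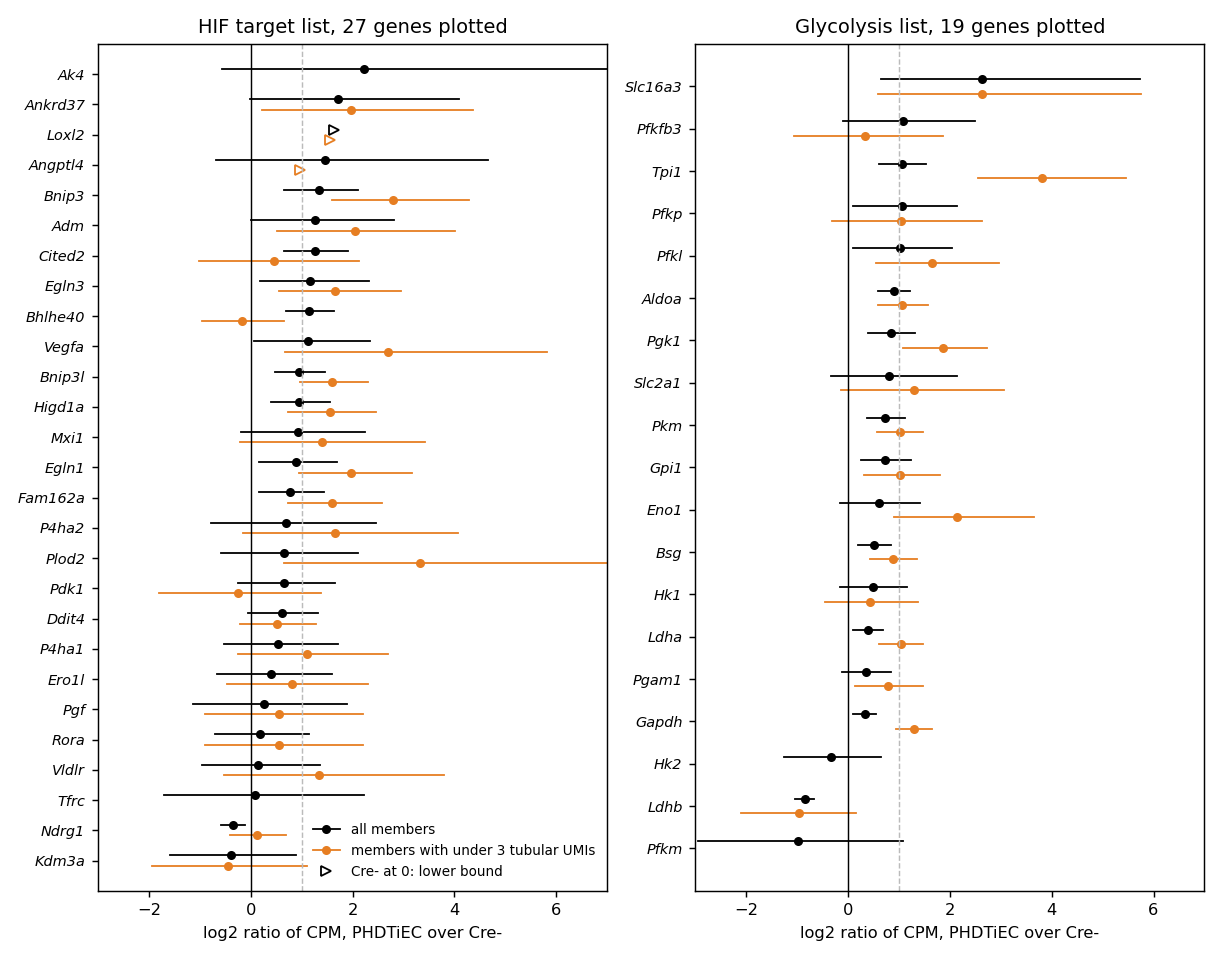
Log2 ratio of summed CPM, PHDTiEC over Cre-, for HIF target and glycolytic genes with at least 10 UMIs in all Plvap capillary cells and in the low-tubular cells, with exact 95% intervals for counting error, cut at the edge of the axis where wider, and a dashed line at 2-fold. Most points lie above 0, Tpi1 reaches 3.82 in the low-tubular cells, and Bhlhe40 crosses from 1.15 to -0.16.

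The difference was not shared by all capillary cells. HIF target UMIs per 10000 UMIs of a cell ran from 0 through a median of 13.4 to 38.3 in Cre- and from 0 through 14.8 to 188 in PHDTiEC. The medians were close, and 16 of 100 PHDTiEC cells (16.0%, 9.43% to 24.7%) lay above the highest Cre- cell. After each cell of at least 1000 UMIs was thinned to 1000 UMIs, which left out 0 cells of Cre- and 6 of PHDTiEC, the highest cell had 5 HIF target UMIs in Cre- and 22 in PHDTiEC, with medians of 1 and 2. Glycolytic UMIs per 10000 had medians of 24.6 and 27.0, and 3 of 100 PHDTiEC cells (3.0%, 0.62% to 8.52%) lay above the highest Cre- cell. That highest Cre- value of 185 belonged to a tubule-carrying cell.

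In the low-tubular cells the highest Cre- cell had 46.0 glycolytic UMIs per 10000, and 18 of 80 PHDTiEC cells (22.5%, 13.9% to 33.2%) lay above it. This value was picked after the cells were seen, it marks a range of values and not a cell type, and 2 PHDTiEC cells lay within 10% of it. HIF targets were not used to pick these cells and the lists have 0 genes in common, but HIF also switches on genes of glycolysis. The HIF target level of the 18 cells is therefore not independent of how they were picked. All 14 PHDTiEC cells above the highest Cre- value of HIF targets (36.9 per 10000) were among the 18. The median of HIF target UMIs per 10000 was 57.2 in the 18 cells, 12.8 in the other 62 PHDTiEC cells and 12.7 in the Cre- cells.

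The levels of single genes in these cells are given as a description. Bnip3 was at 32.2 CPM in the low-tubular cells of Cre-, 20.8 CPM in the 62 PHDTiEC cells and 853 CPM in the 18. Mif was at 145, 192 and 1899 CPM in the same order, Higd1a at 80.6, 70.9 and 749 CPM, and Fam162a at 69.8, 70.9 and 646 CPM. Egln1 was at 48.3, 70.9 and 556 CPM and Egln3 at 43.0, 37.5 and 439 CPM, whereas Egln2 was at 43.0, 50.03 and 64.6 CPM. Vegfa was at 10.7, 16.7 and 233 CPM, and Adm at 21.5, 12.5 and 323 CPM. Some genes were also higher in the 62 cells than in Cre-. Hif1a was at 59.1 CPM in Cre-, 200.1 CPM in the 62 cells and 233 CPM in the 18, Bnip3l at 129, 233 and 879 CPM, and Plod2, a collagen lysyl hydroxylase, at 5.37, 33.4 and 116 CPM. Over the 15 HIF targets that could be compared between the 62 PHDTiEC cells and Cre-, 6 were higher and the median log2 ratio was -0.19. These 62 cells are what was left after the PHDTiEC cells of high glycolytic level were taken out, with no such step in Cre-, so their level does not show that they equal the Cre- cells.

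The 18 cells were within the endothelial selection, which required endothelial transcripts and Plvap. They had a median of 3814.5 UMIs (898 to 11410), beside 3208 in the other PHDTiEC cells and 3340.5 in Cre-. Endothelial marker UMIs per 10000 had medians of 108, 123 and 118 in the 18 cells, the 62 cells and Cre-, the 5 fenestrated capillary markers had medians of 42.2, 57.02 and 49.2, and Gpihbp1 was seen in 15 of 18, 41 of 62 and 30 of 46. Fabp4 was at 8037 CPM in the 18 cells, 4586 CPM in the 62 and 3814 CPM in Cre-. The median of Plvap itself was 4.5 UMIs in the 18 cells, 11.5 in the 62 and 10 in Cre-. At least 3 UMIs of 10 macrophage genes were found in 2 of 18, 6 of 62 and 10 of 46 cells. Immediate early genes, which dissociation can induce, had medians of 199, 58.2 and 94.2 UMIs per 10000, so they were highest in the 18 cells, and their part in the result was not tested.

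**Figure D4:**
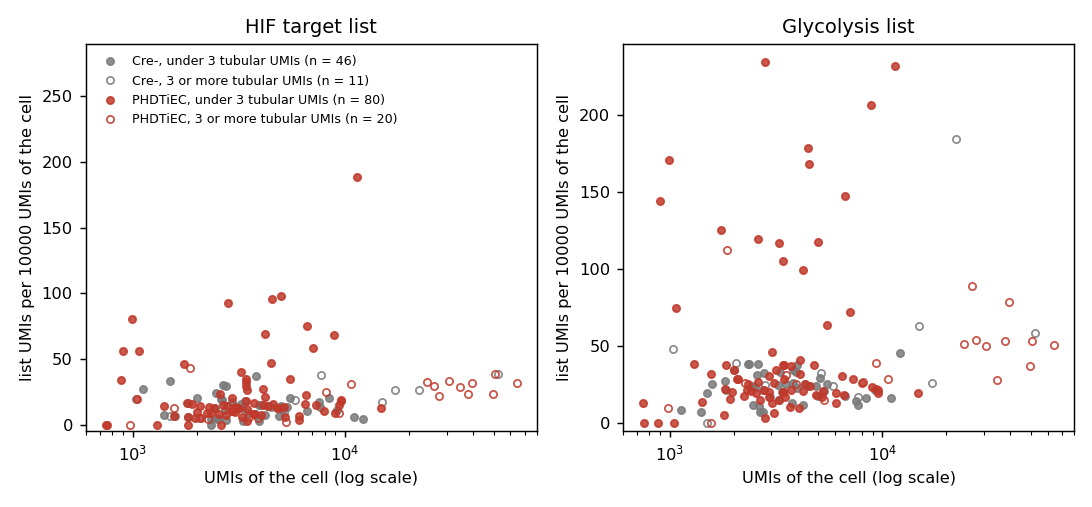
HIF target UMIs (left) and glycolytic UMIs (right) per 10000 UMIs of a cell, against the UMIs of the cell (log axis), for every Plvap capillary cell; open points are tubule-carrying cells. Low-tubular Cre- cells stay at or under 46.0 glycolytic and 36.9 HIF target UMIs per 10000, and 14 low-tubular PHDTiEC cells exceed both values.

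The same cut was read in the other endothelial classes, with low-tubular cells alone. Cells above 46.0 glycolytic UMIs per 10000 were 2 of 128 in Cre- (1.56%) and 73 of 211 in PHDTiEC (34.6%) among the cells with Sox17, Gja4 or Gja5, 0 of 8 and 6 of 19 among the Slc14a1 cells, 2 of 47 and 29 of 71 (40.8%) among the mural-carrying cells, and 1 of 12 and 9 of 19 among the cells with 0 or 1 Plvap UMI. The median log2 ratio of HIF targets in all cells of a class was 1.05 in the Sox17, Gja4 or Gja5 cells, 1.503 in the Slc14a1 cells, 0.66 in the mural-carrying cells, 0.16 in the cells with 0 or 1 Plvap UMI and 0.91 in the Plvap capillary cells. That of glycolytic genes was 0.99, 1.11, 0.63, -0.21 and 0.73 in the same order. In the cells with 0 or 1 Plvap UMI 6 of 21 glycolytic genes were higher. Only 12 of 43 cells of that class in Cre- and 19 of 52 in PHDTiEC were low-tubular. The 16 endothelial markers summed to 242 and 377 CPM in it, beside 8053 and 5790 CPM in the Plvap capillary cells. Its values of 0.16 and -0.21 thus describe mainly tubule-carrying cells. The few low-tubular cells of the class had HIF target and glycolytic medians of 2.44 and 2.42. Whether the size of the difference varied between classes was not tested.

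The genes that mark the capillary cells were not higher. Plvap had 745 UMIs in Cre- and 1136 in PHDTiEC, a log2 ratio of -0.63 (-0.76 to -0.49), and -0.09 (-0.24 to 0.05) in the low-tubular cells. All 5 fenestrated capillary markers were lower over all capillary cells (median -0.63), and 2 of 5 were higher in the low-tubular cells (median -0.09). Endothelial markers in general behaved likewise. Of 16, 0 were higher over all capillary cells and the median was -0.44, while 8 were higher in the low-tubular cells with a median of 0.06. The lower median of the endothelial markers was thus seen with the tubule-carrying cells included, which held a larger share of the UMIs in PHDTiEC. A link between the lower median and that share was not tested.

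Among the genes of fatty acid uptake and capillary identity the low-tubular cells had a median log2 ratio of 0.29, and -0.04 was found over all capillary cells. Fabp4 (chr3:10204088-10208576, minus strand) had 883 and 2028 UMIs, a log2 ratio of -0.03 (-0.15 to 0.08) over all capillary cells and 0.51 (0.38 to 0.64) in the low-tubular cells. Gpihbp1 went from -0.09 (-0.35 to 0.18) to 0.49 (0.20 to 0.78) between the counts. Rgcc, a cell cycle regulator of capillaries, went from -0.04 to 0.55 (0.27 to 0.83), and Igfbp5, which binds insulin-like growth factors, from -0.01 to 0.72 (0.47 to 0.97). Igfbp7, a matrix-bound relative, was lower in both, at -0.71 (-0.88 to -0.53) and -0.81 (-1.07 to -0.55). Aplnr was at -1.09 (-1.56 to -0.62) over all capillary cells and -0.50 (-0.999 to 0.01) in the low-tubular cells.

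Junction genes and endothelial transcription factors as lists showed no common direction. Of 10 genes of tight and adherens junctions 5 were higher and 5 lower over all capillary cells (median 0.00), and 3 of 8 were higher in the low-tubular cells (median -0.07). Of 16 endothelial transcription factors 4 were higher over all capillary cells (median -0.15) and 10 in the low-tubular cells (median 0.30). Single genes that were lower by both counts, picked after their values were seen, are given next. Cldn5, the main claudin of endothelial tight junctions, had 72 UMIs in 12 cells of Cre- and 53 UMIs in 21 cells of PHDTiEC, with log2 ratios of -1.68 (-2.22 to -1.14) and -1.38 (-1.96 to -0.81), although 34.7% of the UMIs of a library came from 1 cell. Sox18 and Sox7, transcription factors of vessel development, were at -0.92 and -1.39 over all capillary cells and at -0.56 (-0.998 to -0.11) and -0.89 (-1.77 to -0.01) in the low-tubular cells. Npr1, the receptor of atrial natriuretic peptide, was at -1.03 (-1.63 to -0.43) and -0.87 (-1.53 to -0.22). Mcam, an adhesion molecule, was at -1.17 (-1.78 to -0.57) and -0.84 (-1.50 to -0.18).

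Of the VEGF axis, 5 of 9 genes were higher over all capillary cells with a median of 0.18. Intervals lay above 0 for 2, beside 795 of all 9414 genes. In the low-tubular cells 7 of 7 were higher with a median of 0.52 and intervals above 0 for 3, beside 301 of all 6484 genes. Flt1, which encodes VEGF receptor 1 and its soluble decoy form, had 251 and 670 UMIs and log2 ratios of 0.18 (-0.03 to 0.40) and 0.74 (0.51 to 0.97). Kdr, the signaling receptor VEGFR2, was at -0.16 (-0.47 to 0.16) and 0.32 (-0.02 to 0.66). Of the angiopoietin axis, 1 of 6 genes was higher over all capillary cells (median -0.36), with intervals below 0 for 2, beside 663 of all 9414 genes. In the low-tubular cells 5 of 5 were higher (median 0.17), with an interval above 0 for 1, beside 301 of all 6484 genes. The receptors Tek and Tie1 were at -0.48 and -0.33 over all capillary cells and at 0.05 and 0.16 in the low-tubular cells. S1pr1, the sphingosine-1-phosphate receptor that stabilizes endothelial junctions, was higher in both at 0.61 (0.06 to 1.20) and 1.23 (0.61 to 1.90).

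Genes of vascular tone leaned lower. Of 9, 2 were higher over all capillary cells with a median of -0.75, and 1 of 9 in the low-tubular cells with a median of -0.24. Nos3, endothelial nitric oxide synthase, was at -1.10 (-2.04 to -0.15) and -0.18 (-1.23 to 0.90), and the endothelin receptor Ednrb at -0.75 (-1.17 to -0.34) and -0.30 (-0.76 to 0.17). Adhesion molecules and selectins had a median of -0.31 over 17 genes and -0.04 over 16 in the low-tubular cells. Vcam1 was at -0.88 (-1.23 to -0.53) and -0.35 (-0.82 to 0.13), whereas Icam2, a constitutive adhesion molecule, was at 0.31 (-0.12 to 0.76) and 0.83 (0.37 to 1.32). Selp and Sele, the selectins that capture leukocytes, had 52 or fewer UMIs in each library and log2 ratios of -1.09 and -1.23 over all capillary cells.

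MHC class II genes, which present antigen, were higher in PHDTiEC in the summed counts, but hardly so without the macrophage- and tubule-carrying cells. Of 6, 5 were higher over all capillary cells with a median of 1.01, and 5 of 5 in the low-tubular cells with a median of 1.59. Cd74, the invariant chain, had 81 and 378 UMIs, of which 38.4% of a library came from 1 cell. Macrophage genes had 86 UMIs in Cre- and 444 in PHDTiEC, and 1 PHDTiEC cell held 215 of them. With the macrophage- and tubule-carrying cells left out the MHC class II median was 0.04, beside 1.59 with the tubule-carrying cells alone left out. Single cells also carried several chemokine and matrix sums. Ccl5 had 3 and 70 UMIs with 92.9% from 1 cell, Ccl8 0 and 42 UMIs with 90.5% from 1 cell, and Fn1, fibronectin, 4 and 67 UMIs with 83.6% from 1 cell.

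Mitochondrially encoded genes were lower in PHDTiEC in the summed counts and in the median cell, but hardly so in the mean over all capillary cells. They took 62645 CPM of the capillary UMIs in Cre- and 50213 CPM in PHDTiEC, with 1 of 13 genes higher and a median log2 ratio of -0.31. Intervals lay below 0 for 9, beside 663 of all 9414 genes. In the low-tubular cells the mitochondrially encoded genes took 42086 and 31468 CPM, 0 of 13 were higher, and the median was -0.38. Within PHDTiEC the median was 170 UMIs per 10000 in the 18 cells of high glycolytic level and 283 in the other 62, beside 418 in Cre-. Nuclear genes of the respiratory chain had medians of -0.12 and -0.28. The median mitochondrial share of a capillary cell was 4.40% in Cre- and 2.83% in PHDTiEC. It was also lower in PHDTiEC in all kept cells (4.12% and 3.06%) and in Ptprc-positive immune cells (3.46% and 2.50%). In the Sox17, Gja4 or Gja5 cells it was 4.24% and 2.70%, so the lower share was not particular to the capillary cells. With every cell given equal weight, as a ratio of means over cells, the mitochondrial list median was -0.04, and -0.17 in the low-tubular cells. With cells of 2000 to 20000 UMIs it was -0.30. It was 0.10 with the UMIs of the 1 cell richest in each gene taken out of that gene's sum in each library. The library totals kept those UMIs, so the 0.10 is not a ratio without those cells.

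Immediate early genes were higher for 13 of 14 genes over all capillary cells (median 0.64) and in 12 of 14 in the low-tubular cells (median 0.46). Jun had 575 and 2051 UMIs and was at 0.60 (0.47 to 0.74) and 0.92 (0.75 to 1.09), and Fos was at 1.01 (0.87 to 1.14) and 0.50 (0.31 to 0.69). With every cell given equal weight the list median was 0.22. Of 16 genes of the cell cycle 9 were detected in each library, with 184 UMIs (577 CPM) in Cre- and 397 UMIs (530 CPM) in PHDTiEC in all, while the proliferation genes Mki67 and Top2a were at 0 UMIs in both. The 5 cell cycle genes with at least 10 UMIs had a median log2 ratio of -0.23, and every interval spanned 0.

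**Figure D5:**
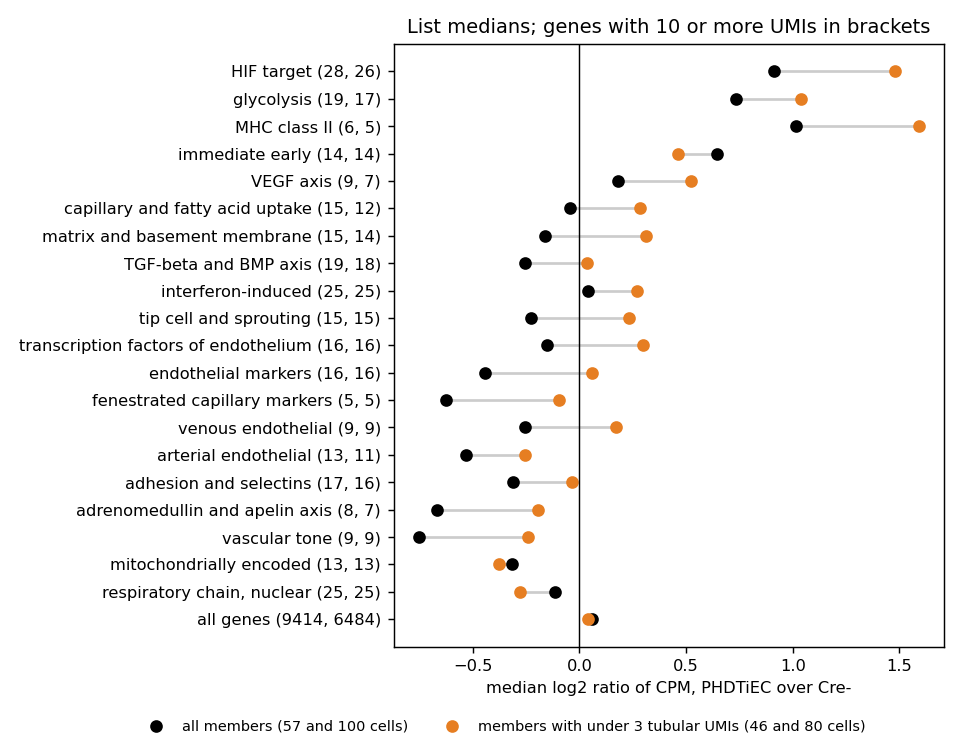
Median log2 ratio (PHDTiEC over Cre-) of gene lists in all Plvap capillary cells and in the low-tubular cells, with all genes in the last row and a vertical line at 0. HIF targets (0.91 and 1.48), glycolysis (0.73 and 1.04) and MHC class II (1.01 and 1.59) lie highest among the lists drawn, which leave out the floxed genes, the vasa recta and mesenchymal lists and the lists of other cell types, and mitochondrially encoded genes lie below 0 in both counts.

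The 12 highest and 12 lowest log2 ratios were taken among 2166 genes that passed a filter. A gene needed at least 50 UMIs and a higher CPM in the capillary cells than in all other kept cells. In the library where it was higher, it needed UMIs in at least 10 cells and at most 25% of them from 1 cell. Mitochondrially encoded, ribosomal protein and haemoglobin genes were left out, as were Gm42418 and Gm26917, the genes of the selection rule, Xist and Y-linked genes. The paper associates Gm42418 and Gm26917 with ribosomal RNA contamination, and other transcripts of that kind were not looked for. Among the highest, Hif1a at 2.04, Camk2n1, an inhibitor of the kinase CaMKII, at 1.959 (1.72 in the low-tubular cells, 0.62 to 3.02) and Dnajc21, a ribosome biogenesis cochaperone, at 2.27 (2.87, 0.87 to 5.998) were higher by both counts, as was the splicing kinase Clk4 at 1.74 (1.97, 0.21 to 4.36). Efhd1, Rnd3, Sytl2 and Slc35f5 had ratios from 1.69 to 3.36 over all capillary cells, but with at most 7 UMIs in either library among the low-tubular cells most of their UMIs lay in the tubule-carrying cells. Ppp2r3a, Pdcd4, Bag4 and Csnk2a2 were at 1.62 to 2.03, with intervals that spanned 0 in the low-tubular cells.

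The lowest ratios ran from -1.69 to -1.22. Lars2, the mitochondrial leucyl-tRNA synthetase, had 115 and 84 UMIs and log2 ratios of -1.69 (-2.11 to -1.27) and -0.95 (-1.44 to -0.46). The transcript AY036118, which was not on the list of genes left out, had 363 and 338 UMIs. It was at -1.34 and -0.68 (-0.91 to -0.44). Lmcd1, a LIM domain regulator of transcription, was at -1.66 and -1.30 (-2.09 to -0.52), and Hyal2, a hyaluronidase of the cell surface, at -1.52 and -1.26 (-2.12 to -0.43). Rtp4, Vwa1, Nsmce1 and Mmp11 also kept intervals below 0 in the low-tubular cells, while Igf1, which encodes insulin-like growth factor 1, went from -1.35 (-1.83 to -0.87) to -0.23 (-0.82 to 0.37) and Hs3st1 from -1.23 to -0.47 (-1.34 to 0.41). Sox7 and Ebf1, at -1.39 and -1.22, had low-tubular intervals that reached just below 0.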

How the data were processed

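Both libraries were made by the authors with the 10x Genomics Chromium 3′ v3.1 chemistry and processed with Cell Ranger 4 against mm10. The deposited values are unfiltered UMI counts per gene and barcode. Barcodes with 500 to 100000 UMIs, at least 200 genes, at most 50% mitochondrial UMIs and log10 of genes divided by log10 of UMIs not under 0.8 were kept (8468 in Cre-, 9233 in PHDTiEC). The members and gene lists were chosen with earlier results of these data known. Counts were summed over the members of a library and divided by their total. The log2 ratio of CPM had an exact 95% interval from the split of the counts, and a gene at 0 in a library was set at 3 UMIs. List medians used genes with at least 10 UMIs in both libraries together, and calls of at least 2-fold used genes with at least 20. Named genes, beside members of the lists, were the 12 highest and 12 lowest ratios with at least 50 UMIs. In the library where it was higher, such a gene needed UMIs in at least 10 cells and at most 25% of them from 1 cell. Its CPM had to be above that in all other kept cells, and the gene classes stated with these genes were left out. No gene length enters a 3′ count. Alternatives were leaving out tubule- or macrophage-carrying cells, other depth limits, equal weight per cell, TMM scaling (edgeR 4.0.16, R 4.3.3), subtraction of an ambient profile, and doublet scores. In a further alternative the top cell's UMIs of each gene were taken out of that gene's sum, but not out of the library total. Scrublet (scanpy 1.11.5) at its automatic threshold marked 1 and 0 cells and had not worked, so the 8% of highest scores were marked instead (719 and 748 cells, of which 3 and 7 were members), a limit chosen after that. The calculation was tested on simulated data. Python 3.11.15, numpy 2.4.6, scipy 1.17.1, pandas 2.3.3 and matplotlib 3.10.9 were used. Gene coordinates are those of GENCODE vM21, and promoter sequences are those of RefSeq. A gene counted in the HIF target list is not reported here by itself and is not plotted.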

Additional observations from a re-analysis of the deposited data

How the results depend on the processing

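No paired analysis was possible because each genotype had 1 library. HIF targets kept a positive median under every alternative run, from 0.70 with Scrublet-marked cells left out to 1.80 with an ambient profile subtracted, and glycolysis from 0.67 to 1.87, the latter also with the ambient profile subtracted. The ambient estimate took 85.9% and 100% of member UMIs, so those values rest on little. The ratio of the capillary shares ranged from 1.05 to 1.61. The Cre- share of endothelial cells was 19.1% without tubule-carrying cells, 18.2% with 2000 to 20000 UMIs, and 19.8% (22.9% in PHDTiEC) without tubule- or macrophage-carrying cells, and the shares of all kept cells were 0.673% and 1.08%. The counts of genes at least 2-fold higher and lower, 786 and 307, became 262 and 119 without tubule-carrying cells and 251 and 149 with 2000 to 20000 UMIs. They were 1290 and 1433 with the ambient profile subtracted. With the top cell's UMIs of each gene taken out of that gene's sum alone they were 1202 and 189. They were 1535 and 1474 with no minimum of UMIs and 254 and 98 with at least 50 UMIs. Under the alternatives added after the data were seen they were 254 and 101, and 351 and 188. With every cell given equal weight 463 genes were lower. TMM moved every ratio by 0.009. Over 57 genes and 845 values, 689 stayed within the counting interval of the value reported, 145 moved out of it and 11 changed sign. Without tubule-carrying cells Slc35f5 was at -0.77 and Bhlhe40 at -0.16. With 2000 to 20000 UMIs Efhd1 was at -0.54, Rnd3 at -0.18, Slc35f5 at -0.81, Sytl2 at -0.67, Bhlhe40 at -0.58 and Cited2 at -0.10. With equal weight Bhlhe40 was at -0.073, and with equal weight and no tubule-carrying cells it was at -0.42 and Cited2 at -0.34. The cause was not tested. The share of low-tubular PHDTiEC cells above the highest Cre- cell in glycolytic UMIs stayed between 21.3% and 25.0%.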

Other observations

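Some splits of the capillary cells were made after the data were seen and are given as values. Among the low-tubular cells in which the venous genes Nr2f2, Vwf or Selp were seen (23 of Cre-, 46 of PHDTiEC), HIF targets summed to 1019 CPM in Cre- and 3336 CPM in PHDTiEC, with 20 of 23 genes higher and a median log2 ratio of 1.65. In those without these genes (23 and 34 cells) the sums were 1686 and 2153 CPM, with 6 of 12 genes higher and a median of -0.02, and glycolysis had a median of 0.83 beside 1.19 in the former. The venous-gene cells were deeper, with medians of 5043.5 and 4670.5 UMIs among all capillary cells beside 2647 and 2733, and the difference between the subsets was not tested. Cells with Esm1, a gene of VEGF-stimulated tip cells, had HIF target medians of 1.73, beside 0.98 in cells without it. Cells with and without Gpihbp1 were closer, at 1.22 and 1.39.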
